A study of Homo sapiens with 6 samples.

Results

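The genes described here are the 92 that stood clearly above the control in every siRNA library of an RNA sequencing study of 2 human bladder carcinoma cell lines, T24 and UM-UC-3. They were chosen by their measured values. A gene was taken when it was listed in both lines, had a mean of 1 CPM (reads of the gene scaled to the same total of gene-assigned reads in every library) or more over the 6 libraries, and exceeded the control of its own line in each of the 4 siRNA libraries by the log2 of 1.5 or more on the log2(CPM + 1) scale. That threshold stands for 1.5-fold at high levels and for more than that at low ones. Of 19945 genes listed in both lines 13265 reached the mean of 1 CPM and 100 of these met the size rule, which is 0.754% of the genes measured. Names beginning with HIST, KDM or DNAJ, and PRKAR1B, were left out by the same rule, which removed 8 genes and left 92. The mirror rule, lower by the same size in each of the 4 libraries, took 84 genes (0.633%). Because the contrast of siRNA with control chose the genes, their differences from the control are given as a description, without a test.

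Cells of each line received siRNA-1, siRNA-2 (both at 0.04 OD, per the labels) or a negative control and were taken after 48 h, and each combination gave 1 library. T24 was grown in RPMI-1640 and UM-UC-3 in DMEM, so the medium and the line cannot be told apart. For 8 genes of the set the gene name differed between the deposited values of T24 and those of UM-UC-3. The gene annotation used for counting may therefore have differed between the lines too. Its part in differences between the lines was not tested. The labels do not say if an siRNA served as the negative control. The labels do not name the siRNA target, while HSF1 is named in the series title and in column headers of the UM-UC-3 values. HSF1 levels in T24 were 106 CPM (control), 20.3 (siRNA-1) and 22.7 (siRNA-2), which left 19.1% and 21.3%. In UM-UC-3 they were 138 CPM, 50.3 and 36.5, which left 36.6% and 26.6%. Library totals lay between 23709089 and 28504833 reads, so that 1 read was worth 0.0351 to 0.0422 CPM. Nothing in the labels says that libraries came from separate cultures, and no combination had more than 1 library. A p-value therefore does not rest on replicates but on the spread among these 6 libraries that its fit left unexplained. That spread is how treatment differences varied between the lines, how siRNA-1 and siRNA-2 differed, or both. Part of it may be technical. Of 17 urothelial and epithelial markers 9 were listed in both lines. The carcinoma keratins KRT8 and KRT18 were the highest of these, at 29.1 to 795 CPM in the controls. KRT7, FOXA1 and PPARG stood at 7.63, 11.6 and 16.1 CPM in the T24 control and at 1.6, 3.76 and 1.36 CPM in that of UM-UC-3. GATA3 was at 1.16 CPM or less and TP63 at 0.281 CPM or less in all 6 libraries. UPK1A and UPK2, which mark differentiated urothelium, were at 0.403 CPM or less in all 6 libraries. Of 8 blood markers only CD14 was listed in both lines, at 0.08 to 0.506 CPM. Of 7 endothelial markers 3 were listed in both lines and summed to 0.523 to 4.40 CPM. Of 7 fibroblast and smooth muscle markers 3 were, and summed to 3.26 to 14.6 CPM. Markers not listed in both lines are left out of these sums.

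HSF1 is a transcription factor that forms trimers under protein damage and binds heat shock elements, inverted repeats of the letters GAA, to switch on chaperone genes. In tumour cells it also occupies genes outside the heat shock response. Its textbook role is that of an activator.

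Because HSF1 has a known binding sequence, promoter windows are shown for FAM210B, MIRLET7IHG and ARRDC3, the first 3 of the set by their smallest difference. The 300 bases around the start of FAM210B, of MIRLET7IHG and of ARRDC3 come from RefSeq (build GRCh38.p14) and run from 250 bases before the first listed start to 50 bases after it. Capitals mark the letters GAANNTTC or TTCNNGAA, the core of a heat shock element, searched on both strands.
FAM210B, chr20:56358724-56359023, plus strand: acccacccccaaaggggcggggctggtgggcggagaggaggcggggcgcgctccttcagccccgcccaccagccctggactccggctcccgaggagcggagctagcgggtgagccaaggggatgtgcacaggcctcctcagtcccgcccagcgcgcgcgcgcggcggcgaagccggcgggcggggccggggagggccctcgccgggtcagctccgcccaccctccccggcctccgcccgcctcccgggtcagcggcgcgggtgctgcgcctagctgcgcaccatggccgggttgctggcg
MIRLET7IHG, chr12:62602493-62602792, plus strand: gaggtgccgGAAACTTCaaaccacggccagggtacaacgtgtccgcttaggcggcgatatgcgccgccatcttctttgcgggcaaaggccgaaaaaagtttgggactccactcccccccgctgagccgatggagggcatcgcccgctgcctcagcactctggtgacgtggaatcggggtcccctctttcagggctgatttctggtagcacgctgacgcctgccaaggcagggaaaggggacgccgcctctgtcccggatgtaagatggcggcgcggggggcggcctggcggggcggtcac
ARRDC3, chr5:91383268-91383567, minus strand: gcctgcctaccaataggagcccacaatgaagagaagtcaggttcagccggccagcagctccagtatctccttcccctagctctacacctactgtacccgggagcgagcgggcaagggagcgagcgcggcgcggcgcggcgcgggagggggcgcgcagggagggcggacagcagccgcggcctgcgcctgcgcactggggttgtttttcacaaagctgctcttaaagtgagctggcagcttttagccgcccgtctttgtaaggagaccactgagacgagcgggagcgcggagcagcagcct
The FAM210B and ARRDC3 windows held neither form, and the MIRLET7IHG window held 1 match that began 241 bases before the start. Of the 92 genes 65 had a window, and 2 of these held GAANNTTC (MIRLET7IHG and ZNF766) and 2 held TTCNNGAA (FMO5 and ZSCAN31). Among the windows of all measured genes that had one, 4.58% held GAANNTTC and 5.82% held TTCNNGAA, and a match is a description, not a bound site. The 65 genes are 70.7% of the set, below the 80% set for such a check, so a comparison of the set with all genes is void. MIRLET7IHG, listed as AC048341.1 in T24 and as RP11-631N16.2 in UM-UC-3, is a long noncoding gene in whose intron the let-7i hairpin lies on the same strand. The mature product, with its seed (bases 2 to 8) in capitals and taken from RefSeq, is:
hsa-let-7i-5p, chr12:62603691-62603712, plus strand: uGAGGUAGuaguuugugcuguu
The let-7 family is known to repress growth genes. The libraries measured the host transcript, not the mature miRNA.

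By textbook role, assigned after the values were known, 16 act in mitochondria or metabolism, 14 in lysosomes and membrane traffic, 10 in ubiquitin-dependent turnover, 8 in the cytoskeleton and cilia, 10 bind DNA or its regulators and 14 sit in membranes or signal. A further 5 are little-characterised protein-coding genes and 15 are noncoding genes or pseudogenes. Per library the median difference over the 92 genes was 0.995 for T24 siRNA-1, 0.859 for T24 siRNA-2, 0.813 for UM-UC-3 siRNA-1 and 0.902 for UM-UC-3 siRNA-2, beside 0.112, 0.027, 0.039 and 0.053 over all 13265 genes. The gene's smallest difference ranged from 0.589 to 1.28 with a median of 0.686, and only 2 genes, FAM210B and MIRLET7IHG, were at 1 or more in all 4 libraries. The 95% counting interval of the CPM ratio to the control lay above 1 in each library for 92 of 92. The rule asked for 1.5-fold or more in these same libraries, so the intervals show counting error and are no test of the change.

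**Figure D1:**
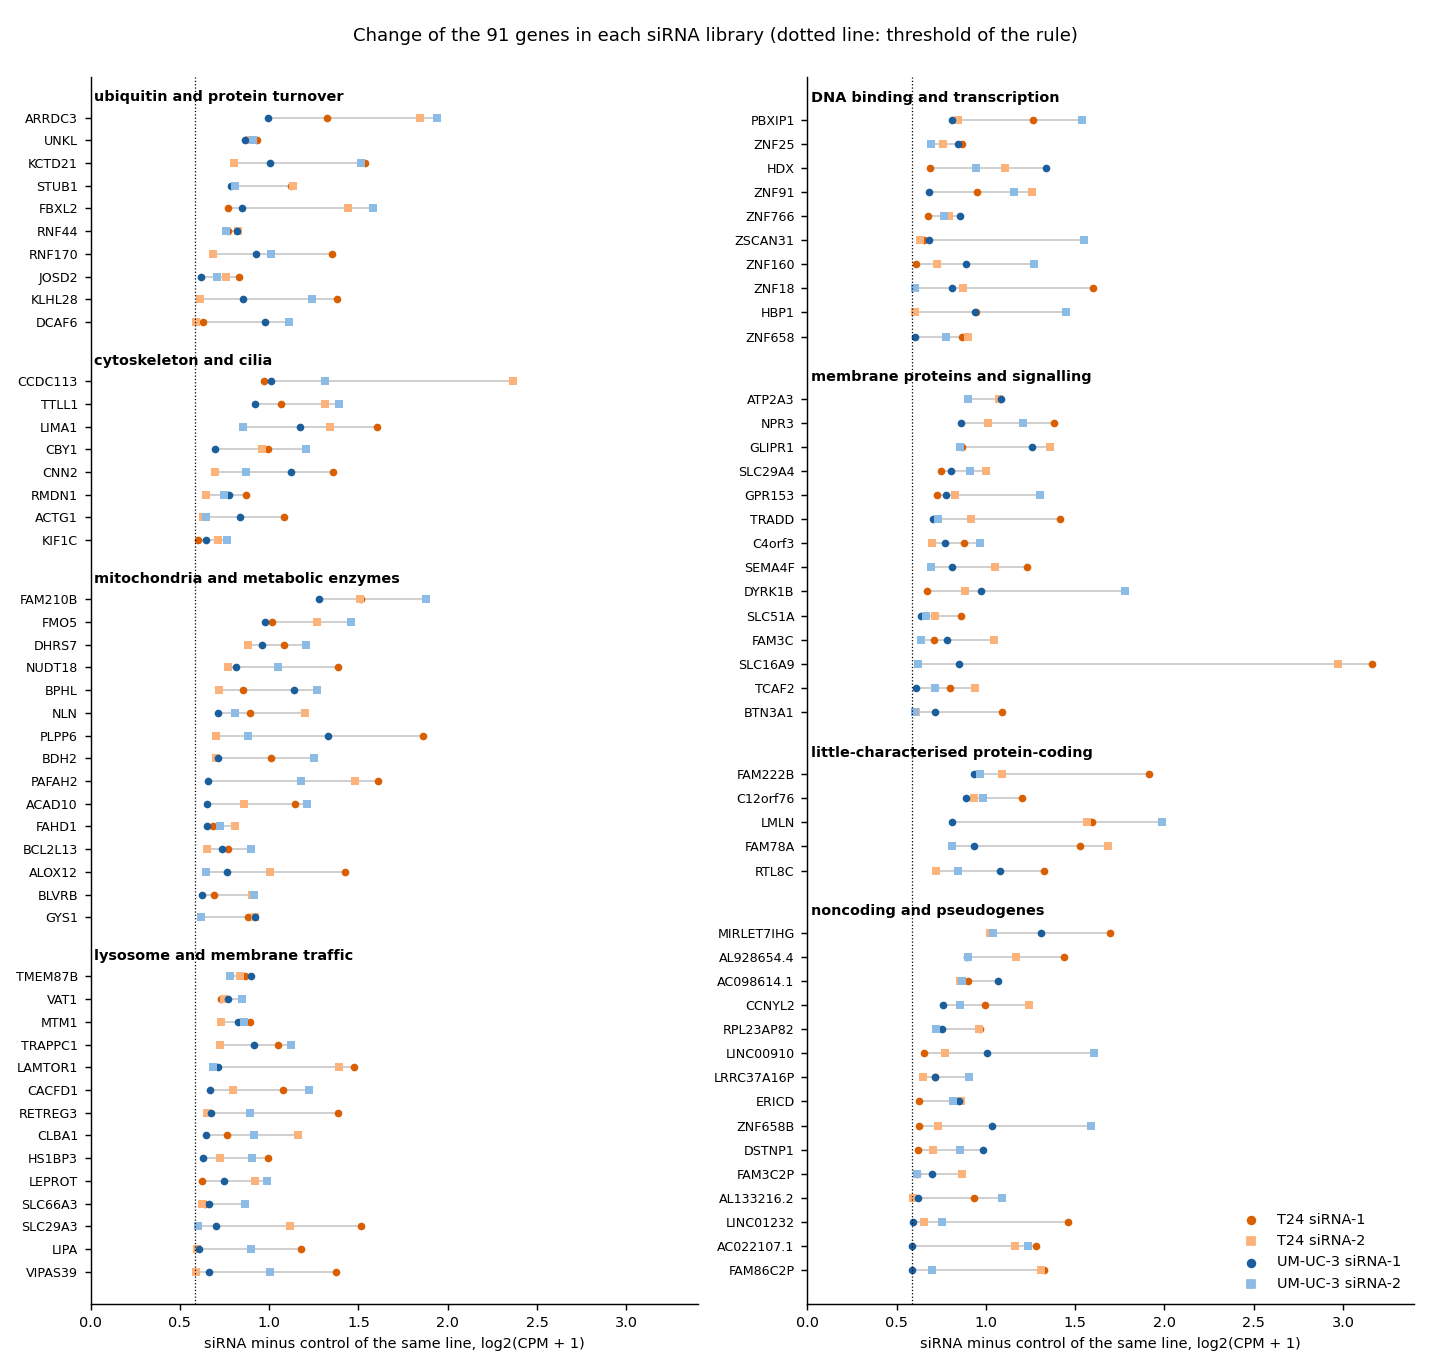
Difference of 91 of the 92 genes from the control of its line on the log2(CPM + 1) scale (x axis), 1 point per siRNA library, grouped by role; grey lines join a gene's lowest and highest library and the dotted line is the threshold of the rule. Most genes sit between the threshold and 1.5, and SLC16A9 stands apart with 3.16 and 2.97 in T24 against 0.85 and 0.62 in UM-UC-3.

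Mitochondrial and metabolic genes held the leading member. FAM210B (ENSG00000124098), a mitochondrial membrane protein known from red blood cell formation, stood at T24 levels of 12.1, 36.3 and 36.2 CPM and UM-UC-3 levels of 11.8, 29.9 and 45.9 CPM; here and for all genes that follow, a line's control comes first, then siRNA-1, then siRNA-2. The control of each line was the lowest of its 3 libraries, as the rule requires of all 92 genes. The ratios were 3.01 (95% counting interval 2.64 to 3.45) and 3.0 (2.63 to 3.44) in T24 and 2.55 (2.23 to 2.92) and 3.90 (3.44 to 4.45) in UM-UC-3. Its relative FAM210A was not in the set. FMO5, a flavin-containing monooxygenase, stood at T24 levels of 0.675, 2.39 and 3.03 CPM and UM-UC-3 levels of 0.92, 2.79 and 4.28 CPM, which rests on 16 and 23 reads in the controls and 66 to 122 reads in the siRNA libraries. DHRS7, a short-chain reductase, stood at T24 levels of 39.9, 85.7 and 74.4 CPM and UM-UC-3 levels of 15.04, 30.2 and 35.96 CPM. The control of each line was again the lowest of its 3 libraries. NUDT18, a hydrolase of oxidised nucleotides, stood at T24 levels of 0.506, 2.93 and 1.57 CPM and UM-UC-3 levels of 1.84, 3.995 and 4.88 CPM. PLPP6, a lipid phosphatase, was uneven between the siRNAs, at T24 levels of 2.83, 12.9 and 5.23 CPM and UM-UC-3 levels of 8.32, 22.5 and 16.2 CPM. The siRNA-1 library was the higher of the siRNA libraries in both lines. Also in the group were the peptidase NLN, the hydrolase BPHL, the dehydrogenase BDH2, the phospholipase PAFAH2, the acyl-CoA dehydrogenase relative ACAD10, the oxaloacetate decarboxylase FAHD1, the mitophagy receptor BCL2L13, the lipoxygenase ALOX12, the biliverdin reductase BLVRB and the glycogen synthase GYS1. Over all 16 the single differences ran from 0.62 to 1.88.

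**Figure D2:**
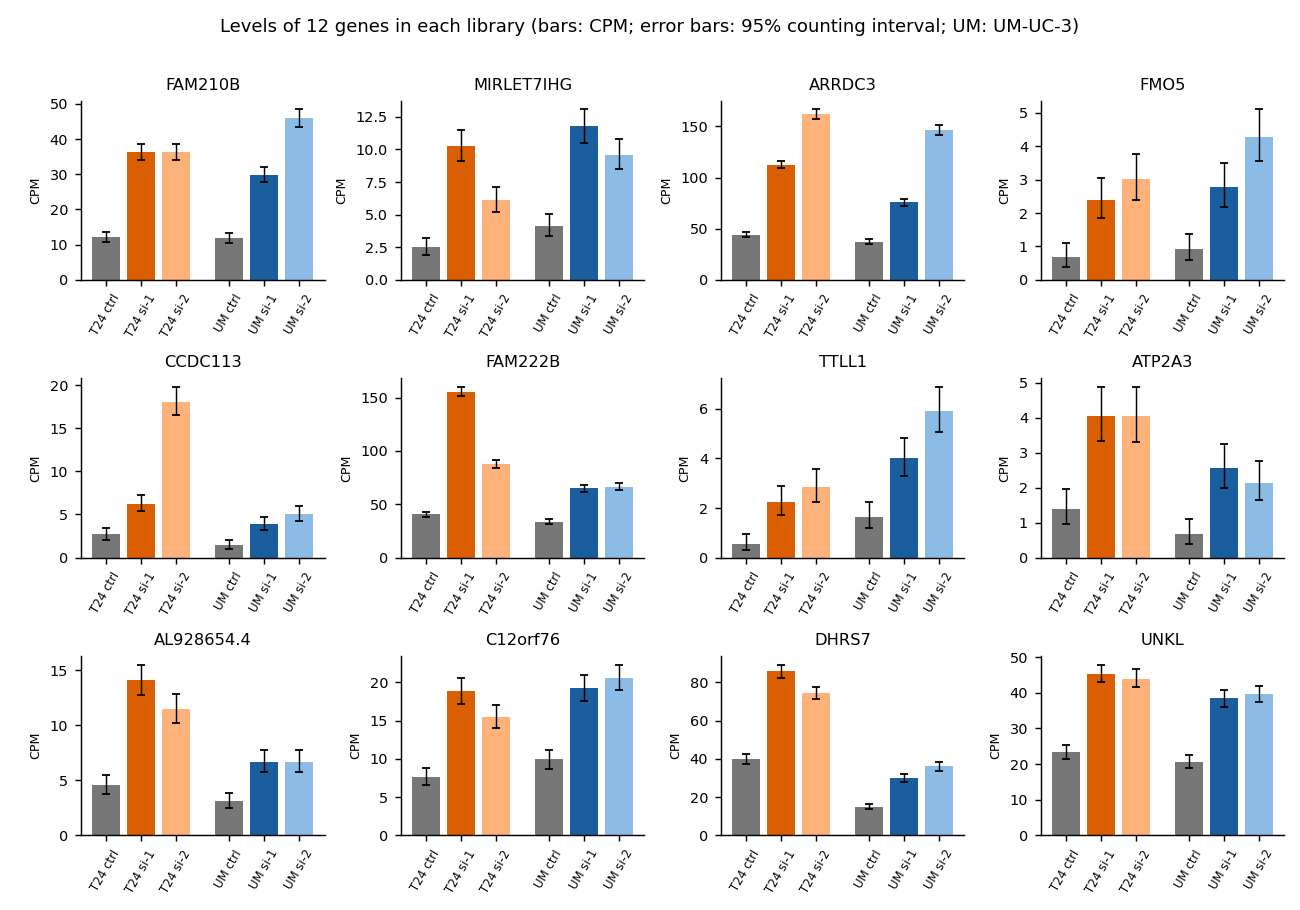
CPM in each library (y axis, starting at 0) for the 12 genes with the largest smallest difference, with 95% counting intervals; grey bars are the controls, orange T24 siRNA libraries and blue UM-UC-3 siRNA libraries. In every panel both siRNA bars of a line stand above the grey bar of that line, as the rule requires.

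Ubiquitin ligases, their adaptors and 1 deubiquitinase made up 10 of the genes. ARRDC3 (ENSG00000113369), an alpha-arrestin that brings ubiquitin ligases of the NEDD4 family to membrane receptors, stood at T24 levels of 44.3, 112 and 162 CPM and UM-UC-3 levels of 37.4, 75.7 and 147 CPM. The siRNA-2 library was the highest in both lines. UNKL, a RING and zinc finger protein, was the most even of all 92, at T24 levels of 23.3, 45.3 and 44.01 CPM and UM-UC-3 levels of 20.6, 38.4 and 39.6 CPM, with differences between 0.865 and 0.93. RNF44, a RING finger protein, was next, at T24 levels of 108, 184 and 191 CPM and UM-UC-3 levels of 86.3, 153 and 146 CPM. STUB1 (also known as CHIP), the ubiquitin ligase that marks clients of HSP70 and HSP90 for degradation, stood at T24 levels of 19.7, 44.1 and 44.5 CPM and UM-UC-3 levels of 5.12, 9.57 and 9.72 CPM. Of its annotated exon bases 42.4% overlap JMJD8 on the opposite strand, and the difference of JMJD8 from the control lay between -1.02 and -0.05 in the siRNA libraries. The sources used here do not state whether counting was by strand, so reads of overlapping genes cannot be told apart. KCTD21, an adaptor of a cullin ligase, stood at T24 levels of 6.88, 21.9 and 12.7 CPM and UM-UC-3 levels of 4.24, 9.53 and 13.96 CPM, and the F-box protein FBXL2 at T24 levels of 10.8, 19.2 and 31.2 CPM and UM-UC-3 levels of 8.001, 15.2 and 25.96 CPM, higher with siRNA-2 than with siRNA-1 in both lines. RNF170, a ligase of the endoplasmic reticulum, the deubiquitinase JOSD2, the kelch protein KLHL28 and the cullin-associated DCAF6 completed the group, whose median difference was 1.02, 0.81, 0.86 and 1.06 in T24 siRNA-1, T24 siRNA-2, UM-UC-3 siRNA-1 and UM-UC-3 siRNA-2.

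Lysosome and membrane traffic genes numbered 14, with smallest differences of 0.59 to 0.78. TMEM87B, a Golgi protein, stood at T24 levels of 85.9, 157 and 154 CPM and UM-UC-3 levels of 19.6, 37.5 and 34.5 CPM, and VAT1, a vesicle and mitochondrial membrane protein, at T24 levels of 249, 414 and 419 CPM and UM-UC-3 levels of 108, 185 and 196 CPM. These came next in evenness after UNKL and RNF44, with a range of 0.117 over the 4 siRNA libraries in each. MTM1, the myotubularin phosphatase of endosomal lipids, stood at T24 levels of 13.96, 26.8 and 23.8 CPM and UM-UC-3 levels of 13.4, 24.5 and 25.05 CPM. LAMTOR1, which anchors the Ragulator complex that recruits mTORC1 to lysosomes, stood at T24 levels of 32.6, 92.4 and 87.3 CPM and UM-UC-3 levels of 91.4, 150.4 and 148 CPM. Its difference was 1.47 and 1.39 in T24 and 0.71 and 0.69 in UM-UC-3. LIPA, the lysosomal acid lipase, stood at T24 levels of 73.8, 168 and 112 CPM and UM-UC-3 levels of 76.3, 117 and 143 CPM. The remaining 9 were the TRAPP tethering subunit TRAPPC1, the ER-phagy receptor RETREG3, the endosomal sorting protein VIPAS39, the leptin receptor overlapping gene LEPROT, the lysosomal nucleoside transporter SLC29A3, CACFD1, CLBA1, HS1BP3 and SLC66A3. LEPROT shares 165 annotated exon bases, 3.15% of its own, with LEPR on the same strand.

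Cytoskeletal genes held the most abundant transcript. ACTG1, cytoplasmic gamma-actin, stood at T24 levels of 4493, 9505 and 6939 CPM and UM-UC-3 levels of 3854, 6883 and 6029 CPM. CNN2, calponin 2, which binds actin, stood at T24 levels of 236, 606 and 383 CPM and UM-UC-3 levels of 151, 329 and 277 CPM, and LIMA1 (EPLIN), which bundles actin filaments, at T24 levels of 15.4, 48.7 and 40.5 CPM and UM-UC-3 levels of 80.7, 183 and 147 CPM. In all 3 the control was the lowest library of each line, as the rule requires, and siRNA-1 exceeded siRNA-2 in both lines. TTLL1, which adds glutamate chains to tubulin, stood at T24 levels of 0.548, 2.24 and 2.84 CPM and UM-UC-3 levels of 1.64, 3.995 and 5.93 CPM, and CCDC113, a protein of the ciliary axoneme, at T24 levels of 2.70, 6.26 and 18.1 CPM and UM-UC-3 levels of 1.44, 3.92 and 5.05 CPM. The CCDC113 value of T24 siRNA-2 stood apart from the other 3 siRNA libraries, with a difference of 2.37 against 0.97 to 1.31. CBY1, a small protein at the base of cilia that binds beta-catenin, shares 44.8% of its exon bases with AL021707.2 on the opposite strand. The difference of AL021707.2 from the control lay between 0.19 and 0.82 in the siRNA libraries. The kinesin KIF1C and the microtubule protein RMDN1 stood near the threshold, with smallest differences of 0.60 and 0.65.

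Genes that bind DNA included 7 protein-coding members with zinc finger names, ZNF25, ZNF91, ZNF766, ZNF658, ZNF160, ZNF18 and ZSCAN31. ZNF91, which silences a class of retrotransposons, stood at T24 levels of 19.7, 38.9 and 48.5 CPM and UM-UC-3 levels of 14.9, 24.6 and 34.5 CPM. With the pseudogene ZNF658B these were 8 of the 454 measured genes with such names. Of the 454, 144 were above and 19 below the control in all 4 libraries, where 18.8% of all genes were above and 12.2% below, and their median difference was 0.32, 0.04, 0.22 and 0.27 in T24 siRNA-1, T24 siRNA-2, UM-UC-3 siRNA-1 and UM-UC-3 siRNA-2. PBXIP1 stood at T24 levels of 50.8, 123 and 91.97 CPM and UM-UC-3 levels of 23.9, 42.7 and 71.3 CPM. HBP1 (ENSG00000105856), a repressor that holds cells in G1, stood at T24 levels of 25.5, 49.97 and 39.2 CPM and UM-UC-3 levels of 15.6, 30.8 and 44.2 CPM, with UM-UC-3 siRNA-2 the highest difference. HBP1 shares 15.4% of its exon bases with COG5 on the opposite strand. COG5 differed from the control by 0.33 to 0.78 in the siRNA libraries, at a mean of 84.2 CPM beside 34.2 for HBP1. The part of COG5 reads in the HBP1 values was not tested. The homeobox gene HDX had differences of 0.685 to 1.34.

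Membrane and signalling genes held the most uneven member on the log2(CPM + 1) scale. SLC16A9, of the monocarboxylate transporter family, stood at T24 levels of 7.13, 71.8 and 62.8 CPM and UM-UC-3 levels of 1, 2.60 and 2.07 CPM. The T24 siRNA libraries were 10.1-fold (95% counting interval 8.61 to 11.9) and 8.82-fold (7.52 to 10.4) above their control, those of UM-UC-3 2.60-fold (1.63 to 4.28) and 2.07-fold (1.28 to 3.45) above theirs, the latter from 25 reads in the control. NPR3, which clears natriuretic peptides, stood at T24 levels of 0.717, 3.47 and 2.47 CPM and UM-UC-3 levels of 0.36, 1.47 and 2.14 CPM, and ATP2A3, a calcium pump of the endoplasmic reticulum, at T24 levels of 1.39, 4.05 and 4.04 CPM and UM-UC-3 levels of 0.68, 2.57 and 2.14 CPM. Both were scarce in the controls. GLIPR1, a secreted or membrane protein known as a p53 target, stood at T24 levels of 3.67, 7.53 and 10.99 CPM and UM-UC-3 levels of 112, 269 and 204 CPM. Of its exon bases 24.2% overlap KRR1 on the opposite strand, whose difference from the control lay between -0.62 and 0.09. DYRK1B, a kinase known for keeping cells quiescent, stood at T24 levels of 2.36, 4.34 and 5.20 CPM and UM-UC-3 levels of 9.64, 19.9 and 35.5 CPM, with the highest value in UM-UC-3 siRNA-2. TRADD, the adaptor of TNF receptor 1, stood at T24 levels of 13.4, 37.4 and 26.2 CPM and UM-UC-3 levels of 2.56, 4.80 and 4.91 CPM. FAM3C, a secreted factor linked to epithelial-mesenchymal transition, stood at T24 levels of 128, 209 and 265 CPM and UM-UC-3 levels of 69.5, 120.0 and 109 CPM, and its processed pseudogene FAM3C2P at T24 levels of 4.22, 6.98 and 8.52 CPM and UM-UC-3 levels of 2.08, 3.995 and 3.72 CPM. Over 100% of its length the longest FAM3C2P transcript matches transcripts of other genes at 98% identity or more. The longest match is to FAM3C, so reads may have been split between FAM3C2P and FAM3C. The butyrophilin BTN3A1, the semaphorin SEMA4F, the orphan receptor GPR153, the transporters SLC29A4 and SLC51A, the channel-associated TCAF2 and the small membrane protein C4orf3 completed the group.

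Among protein-coding genes of little known function, FAM222B stood at T24 levels of 40.5, 155 and 87.4 CPM and UM-UC-3 levels of 33.5, 64.9 and 66.4 CPM, the highest in T24 siRNA-1. C12orf76 stood at T24 levels of 7.59, 18.8 and 15.4 CPM and UM-UC-3 levels of 9.92, 19.2 and 20.6 CPM and FAM78A at T24 levels of 4.72, 15.5 and 17.4 CPM and UM-UC-3 levels of 8.72, 17.6 and 16.03 CPM. LMLN, a metallopeptidase, stood at T24 levels of 6.07, 20.4 and 19.9 CPM and UM-UC-3 levels of 6.04, 11.4 and 26.9 CPM, and RTL8C, derived from a retrotransposon, at T24 levels of 72.8, 184 and 121 CPM and UM-UC-3 levels of 27.3, 58.8 and 49.9 CPM. In UM-UC-3 the siRNA-2 value of LMLN was the highest of its line, while in T24 its siRNA libraries were close to each other. All 5 had a larger mean difference in T24 than in UM-UC-3.

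The 15 noncoding genes and pseudogenes were mostly scarce, with means of 1.78 to 20.8 CPM. MIRLET7IHG (ENSG00000257354) stood at T24 levels of 2.49, 10.3 and 6.09 CPM and UM-UC-3 levels of 4.16, 11.8 and 9.61 CPM. Its siRNA-1 library was the higher in both lines. AL928654.4 (ENSG00000279495) stood at T24 levels of 4.56, 14.1 and 11.5 CPM and UM-UC-3 levels of 3.12, 6.67 and 6.70 CPM and AC098614.1 (ENSG00000213846), a processed pseudogene, at T24 levels of 4.01, 8.36 and 8.08 CPM and UM-UC-3 levels of 3.16, 7.73 and 6.60 CPM. The rest were RPL23AP82, LINC00910, LINC01232, LRRC37A16P, ERICD, ZNF658B, DSTNP1, AL133216.2, AC022107.1, FAM86C2P, CCNYL2 and FAM3C2P. By the CPM ratio, which the added 1 does not damp, ZNF658B was the most uneven of the 92. It stood at T24 levels of 1.90, 3.47 and 3.81 CPM and UM-UC-3 levels of 0.24, 1.54 and 2.74 CPM, with ratios of 1.83 (95% counting interval 1.27 to 2.67) and 2.01 (1.4 to 2.92) in T24 and 6.41 (2.71 to 18.5) and 11.4 (5.01 to 32.0) in UM-UC-3, the latter against a control of 6 reads. ZNF658 is a near copy of transcripts of other genes over 92.6% of its longest transcript, and ZNF658B over 99.1%. The longest match of each is to the other. For 10 of the 92 genes more than 10% of the longest transcript is such a copy, so their reads may have been split. In addition 28 of the 92 share exon bases with another measured gene, 26 of them on the opposite strand. LRRC37A16P shares 37.1% with AC005332.6, whose differences from the control were 0.53 to 0.96. KCTD21 shares 28.4% with KCTD21-AS1 (-0.83 to 1.12) and DHRS7 27.5% with PCNX4 (-0.01 to 0.3), all on the opposite strand.

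By annotated class (GENCODE release 29), 83.7% of the 92 genes were protein-coding, beside 87.1% of all measured genes, and 9.78% were pseudogenes, beside 4.43%. The median exon length was 4876 bases, beside 4923. No test was made of these shares.

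Just inside the rule stood AL133216.2, LINC01232, AC022107.1 and FAM86C2P, with smallest differences of 0.5911, 0.591, 0.5888 and 0.5885. Just outside stood MRPL57, NUDT9, CPQ and VPS39, at 0.5847, 0.5822, 0.5819 and 0.5815. No gap in the values separates the set from its neighbours. The smallest difference lay in UM-UC-3 siRNA-1 for 31 genes, in T24 siRNA-2 for 28, in UM-UC-3 siRNA-2 for 17 and in T24 siRNA-1 for 16, and the largest in T24 siRNA-1 for 38 and in UM-UC-3 siRNA-2 for 31. On the log2(CPM + 1) scale the widest ranges over the 4 libraries were those of SLC16A9 (2.546), CCDC113 (1.395), LMLN (1.176) and PLPP6 (1.159). The genes left out by name were 6 histone genes, KDM6B and PRKAR1B, with smallest differences of 0.597 to 1.33.

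The rule depends on how libraries are scaled. With TMM factors, 56 of the 92 genes stayed in the set and with DESeq2 size factors 61, none being added. All 92 remained above the control in all 4 libraries under both, which was fixed in advance by shifts far smaller than the threshold. These factors lowered the median difference of all genes by 0.126 (TMM) or 0.112 (DESeq2) in T24 siRNA-1 and by at most 0.067 in the other 3 libraries.

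The siRNAs were compared with each other over both lines. The control drops out of the estimated difference, although the control libraries enter the spread behind its p-values. A rule that asks for both siRNAs to be high narrows the differences that this contrast can show. The comparison therefore cannot say whether the set depends on the siRNA sequence. For the 92 genes its counts and p-values are given as a description. By limma-trend 0 of the 92 genes passed after Benjamini-Hochberg adjustment, beside 37 of 13265 genes (0.279%, of which 0.143% higher and 0.136% lower with siRNA-2). An unadjusted p under 0.05 was found for 4 of the 92, beside 1609 of 13265 genes. By edgeR's quasi-likelihood test (TMM factors) and by DESeq2 on the recovered reads 0 of the 92 passed as well, where edgeR called 0 and DESeq2 253 of all genes. Each had 4 of the 92 at an unadjusted p under 0.05, beside 1499 of all genes by edgeR and 1508 by DESeq2. The count over all genes was 485 without the T24 control, 465 without that of UM-UC-3, 476 without UM-UC-3 siRNA-1, 87 without UM-UC-3 siRNA-2, 21 without T24 siRNA-1 and 0 without T24 siRNA-2, with 0 of the 92 called each time. ARRDC3 was higher with siRNA-2 by 0.73 ± 0.26 (SE; adjusted p = 0.302), CCDC113 by 0.85 ± 0.35 (adjusted p = 0.372) and FBXL2 by 0.705 ± 0.29 (adjusted p = 0.378), each in 2 of 2 lines and none past the threshold. In the other direction PLPP6 had -0.805 ± 0.32 (adjusted p = 0.352), CNN2 -0.455 ± 0.25 (adjusted p = 0.502) and RTL8C -0.42 ± 0.265 (adjusted p = 0.573), again in 2 of 2 lines and not past the threshold. Of the 92 genes 42 (45.7%) had the same sign of siRNA-2 minus siRNA-1 in both lines, beside 62.6% of all genes. Across genes the difference in T24 and that in UM-UC-3, which share no library, had Pearson's r = 0.173 and Spearman's rho = 0.112 over the 92 genes and r = 0.417 and rho = 0.391 over all 13265, given as descriptions, since genes are not independent replicates.

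**Figure D3:**
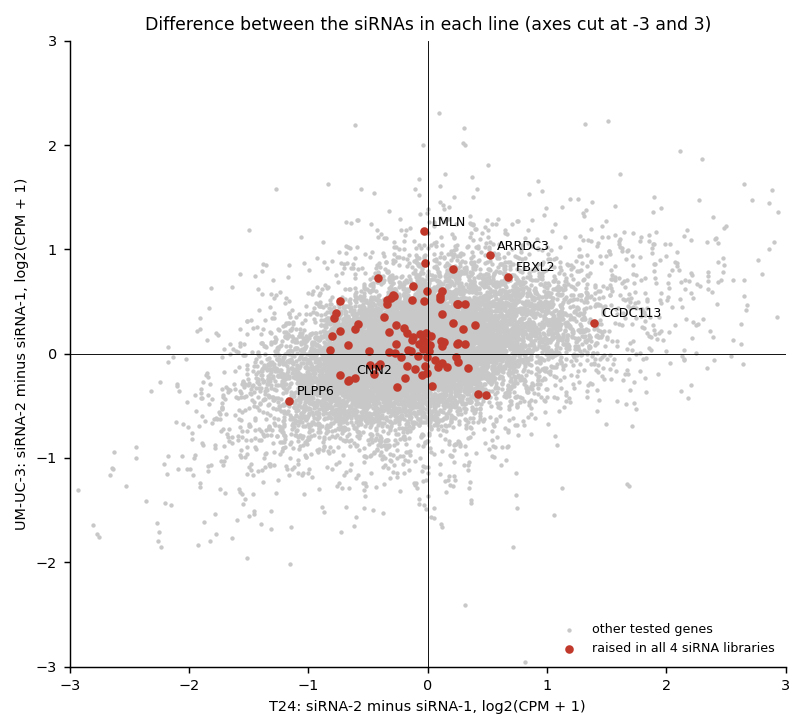
siRNA-2 minus siRNA-1 in T24 (x axis) and in UM-UC-3 (y axis) on the log2(CPM + 1) scale for all measured genes (grey) and the 92 genes (red); 11 grey points lie outside the axes. The red points sit around 0 in both lines, and CCDC113 and PLPP6 lie farthest out along the x axis.

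The size of the siRNA change was also set side by side between the lines. For the 92 genes this is a description without a test, because it is built from the same differences that chose them and the rule narrows it. The change was larger in T24 for 57 genes and larger in UM-UC-3 for 35, with a median T24 minus UM-UC-3 change of 0.057 beside -0.013 over all genes. SLC16A9 had a change larger in T24 by 2.335, and LAMTOR1 and FAM78A by 0.73 each. Toward UM-UC-3 ZNF658B was at -0.63, LINC00910 at -0.60 and DCAF6 at -0.43. The value of ZNF658B depends on the scale, at -1.01 with a pseudocount of 0.5, -2.21 by edgeR with TMM factors and -2.22 by DESeq2, where SLC16A9 was at 1.993 by edgeR and 1.998 by DESeq2. Over all 13265 genes 0 (0%) passed a test of this difference by limma-trend with 4 group means, in which the spread of each line's 1 control was taken to be that of the siRNA libraries, and 622 had an unadjusted p under 0.05. By edgeR's quasi-likelihood test with TMM factors 0 passed (652 at an unadjusted p under 0.05), DESeq2 called 39, and limma-trend with the siRNA number as a replicate block called 119 with 1 residual degree of freedom.

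**Figure D4:**
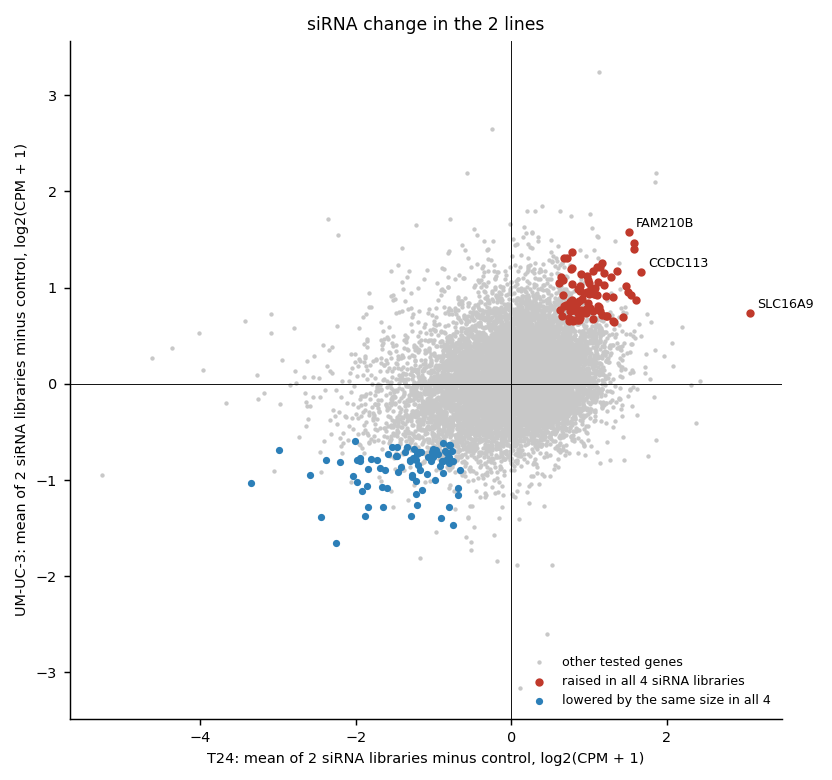
Mean difference of the siRNA libraries from the control in T24 (x axis) and UM-UC-3 (y axis), log2(CPM + 1), for all measured genes (grey, with the genes left out by name), the 92 genes (red) and the 84 genes of the mirror rule (blue). The red points form a corner set by the rule, with SLC16A9 far to the right.

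The rule did not compare levels between the lines, but it asks for a larger ratio where a gene is scarce in either line. The shares among the 92 genes are therefore not free of the choice. The level was tested over all 6 libraries with siRNA or control as a covariate. The medium, and possibly the gene annotation, differed with the line, so this test cannot separate them from the line. By limma-trend 42 of the 92 genes (45.7%) differed between the lines, beside 5253 of 13265 genes (39.6%). Of these, 28 were higher in T24 and 14 in UM-UC-3, beside 21% and 18.6% of all genes. The 4 with the smallest p toward T24 were TMEM87B (2.08 ± 0.20 SE, adjusted p = 8.6e-05), TRADD (2.32 ± 0.25, adjusted p = 0.000171), STUB1 (1.98 ± 0.23, adjusted p = 0.000221) and SLC16A9 (3.58 ± 0.44, adjusted p = 0.000327). Toward UM-UC-3 they were GLIPR1 (-4.56 ± 0.24, adjusted p = 3.32e-06), LIMA1 (-2.01 ± 0.23, adjusted p = 0.000207), DYRK1B (-2.06 ± 0.29, adjusted p = 0.000736) and CCNYL2 (-1.35 ± 0.225, adjusted p = 0.00177). Each of these 8 kept its direction in every library of a line against the other line. The SLC16A9 value includes the siRNA libraries, where its change was larger in T24. In the controls alone SLC16A9 stood at 7.13 CPM in T24 and 1 CPM in UM-UC-3. FAM210B had a difference of -0.01 ± 0.25, which did not pass (adjusted p = 0.979). Without the T24 control 23 of the 92 passed, without the UM-UC-3 control 22 and without UM-UC-3 siRNA-1 23. Over all 13265 genes the counts were 3921, 3909 and 3563 in the same order. In each of these fits the share among the 92 was below that among all genes, as it was without T24 siRNA-2. Without T24 siRNA-1 and without UM-UC-3 siRNA-2 the share among the 92 was above, as in the main fit.

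**Figure D5:**
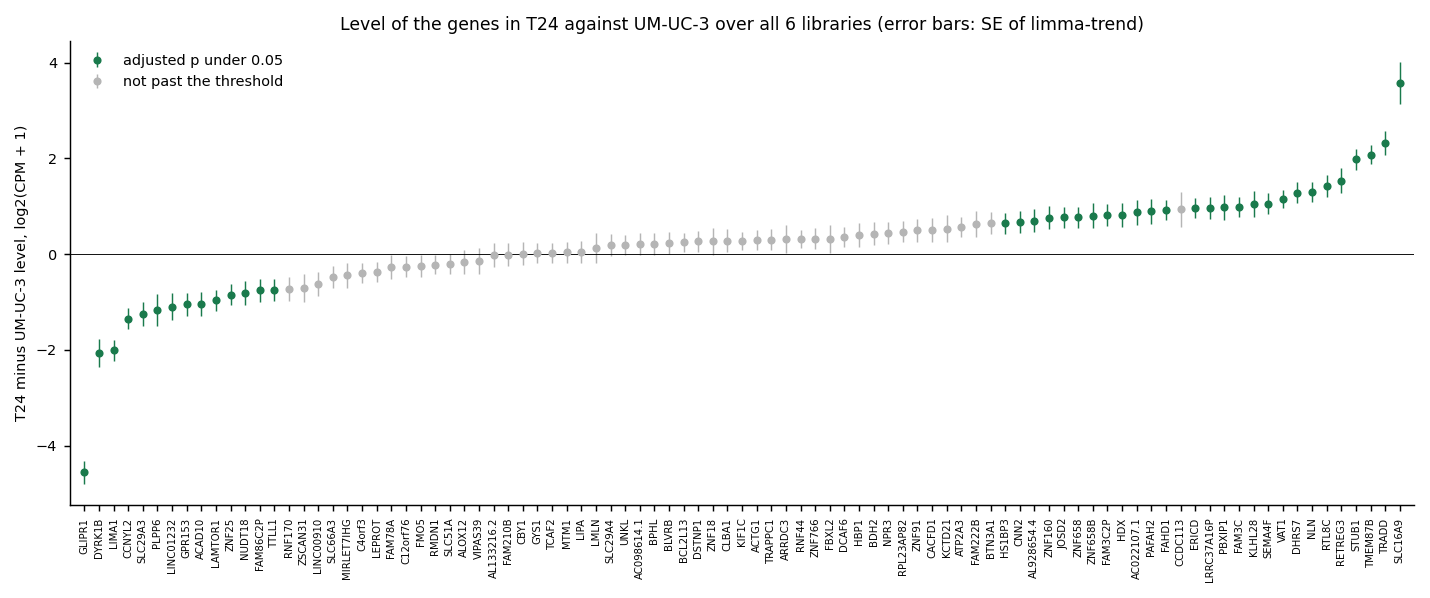
T24 minus UM-UC-3 level of 91 of the 92 genes on the log2(CPM + 1) scale (y axis) over all 6 libraries, with the SE of limma-trend; green genes passed at an adjusted p under 0.05 and grey ones did not. GLIPR1 at -4.56 and SLC16A9 at 3.58 form the ends of the order.

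Genes known from growth arrest were mixed in direction. Of 33 measured growth arrest and FOXO target genes, 5 were above the control in all 4 siRNA libraries (BTG2, SESN1, MXD4, HBP1 and RBL2) and 6 below, beside 18.8% and 12.2% of all genes, and HBP1 alone met the rule. The list's median difference was -0.19 and -0.26 in T24 and 0.16 and 0.43 in UM-UC-3 for siRNA-1 and siRNA-2. CDKN1A, the p21 inhibitor of cyclin-dependent kinases, lay between -1.48 and 0.19 over the 4 libraries. Of 22 TGF-beta and BMP response genes 6 were above and 0 below the control in all 4 libraries, and none met the rule, with a median difference of 0.15 and -0.25 in T24 and 0.32 and 0.47 in UM-UC-3. Of 22 interferon genes 0 were above and 4 below in all 4 libraries. The list's median difference was -0.99 and -2.01 in T24 and 0.35 and 0.08 in UM-UC-3, and the levels of the list summed to 1860, 942 and 560 CPM for T24 and to 484, 565 and 554 CPM for UM-UC-3, controls first. Of 27 proliferation genes, all 27 were below the control in all 4 siRNA libraries and 7 were lower by the size of the rule in each. Their T24 levels summed to 5330 CPM (control), 1850 (siRNA-1) and 2380 (siRNA-2), and their UM-UC-3 levels to 7200, 4860 and 5010. The part of the lower proliferation genes in the levels of the 92 genes was not tested. In bulk libraries, fewer cells in a state and less RNA per cell cannot be told apart. Reads of mitochondrial DNA genes were 1.85%, 2.75% and 2.71% of T24 libraries and 5.78%, 5.74% and 4.70% of UM-UC-3 libraries, controls first.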

How the data were processed

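RNA of 6 libraries was sequenced as 100-base read pairs, per the labels. The authors deposited 1 CPM value per gene and library. The submitters' processing notes name GRCh37 and hg19 as builds and, without roles, the tools HTSeq 0.6.1, HISAT2 2.1.0 and bcl2fastq 2.19.1. The deposited CPM values were whole multiples of 1 read (100% within a tolerance of 0.01), with 0.5 read written for 0, so reads could be recovered. Genes were joined between lines by Ensembl ID, and a gene missing from some libraries of a line was set to 0 there.

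The main tests were limma-trend (limma 3.58.1, R 4.3.3) on log2(CPM + 1), over 13265 genes with a mean of 1 CPM or more, with Benjamini-Hochberg adjustment over all of them at 0.05. edgeR 4.0.16 and DESeq2 1.42.0 on the recovered reads were alternatives, as were other pseudocounts, filters, scalings and leaving out each library. The line difference of the siRNA change was fitted over all genes, and its p-values are not given for the 92 genes, which the same differences chose. Scripts were tested on simulated data. The siRNA number marks the same reagent in both lines, per the labels, and the fit with it as a replicate block was an alternative. Over all genes the difference between the siRNAs correlated between the lines with r = 0.417. Named genes were those with the largest smallest difference, the 4 nearest the threshold on each side, up to 4 in each direction per test (3 where none passed), the most and least even, and list members, with the others named where they share a role. The members and lists were chosen with earlier results of these data known. Intervals of ratios are exact binomial and cover counting error only. Overlaps and near copies come from GENCODE release 29 (GRCh38) with BLAST 2.17.0, a later build than the authors', so no member coordinates are given from it. Of the 92 genes, 1 is counted in the totals but not reported here by name or in the plots that name genes.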

Additional observations from a re-analysis of the deposited data

How the results depend on the processing

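The number of genes that met the rule was 92 as described, 170 with a pseudocount of 0.1, 56 with TMM factors and 61 with DESeq2 size factors. Leaving out 1 siRNA library gave 129 to 245 genes, the most without T24 siRNA-2, since the rule then asks for fewer libraries. The calls between the siRNAs over all genes (37) were 253 with DESeq2, 0 with edgeR under TMM factors, 0 under RLE factors and 0 with no filter on low values, and 0 to 485 with 1 library left out; of the 92 genes 0 were called under each of these. The calls of a line difference over all genes (0) were 39 with DESeq2 and 119 with the replicate block, which called 1 of the 92 genes, SLC16A9, from the same differences that chose it, so that this call is no test. That comparison could not be fitted without a control. The genes of the 92 that differed in level between the lines (42) were 22 to 39 with 1 library left out, and the block gave 45. Over all genes the same counts were 5253 in the main fit, 3563 to 5403 with 1 library left out and 6080 with the block. The cause was not tested for these changes. Of 335 values of single named genes under the alternatives, 320 stayed within their spread or on their side of the threshold, 14 moved (smallest differences under another pseudocount or scaling), 1 passed the threshold and 0 changed sign. Counting error limits the scarce genes, 17 of the 92 having a mean under 5 CPM.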
